A study of Mus musculus with 9 samples.

Results

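The circadian clock genes described here are 10 genes, Per1, Per2, Per3, Cry1, Cry2, Ciart, Nr1d1, Nr1d2, Dbp and Clock, chosen by name from the 45535 rows with a gene symbol in a table of normalized read counts. Each symbol was found in 1 row. The RNA came from lung cells labelled CD103+ DCs, dendritic cells that carry the integrin CD103 and present antigen to T cells. All mice had the genotype C57/BL6j and had received bleomycin, a drug used to model lung injury and fibrosis, for 7 days. Lungs were digested with collagenase and the cells were taken on magnetic beads. In 5 samples RNA was taken directly (before culture). In 4 samples it was taken after 18 h in RPMI medium with serum and antibiotics (after culture). The labels do not say how many mice made up a sample, and if samples shared mice the p-values measure only the spread between these samples. The labels give no hour of the day for either harvest, so culture and time of day cannot be told apart.

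The clock of mammalian cells is a feedback loop of transcription. CLOCK and its partner BMAL1 bind E-box elements and activate the Per, Cry, Nr1d1, Nr1d2, Dbp and Ciart genes. PER and CRY proteins then return to the nucleus and block CLOCK and BMAL1, while the receptors NR1D1 and NR1D2 (REV-ERB alpha and beta) repress Bmal1 and compete there with the activating ROR receptors. Macrophages and dendritic cells carry this loop, and Per1 and Per2 can also be induced directly by cAMP and glucocorticoid signals.

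After culture, 5 of the 10 genes were lower and 1 was higher at a limma adjusted p under 0.05 (limma is a linear model with moderated variances, fitted to all 18202 genes whose normalized counts averaged at least 10). Per1 was 11.1-fold lower, Ciart 5.29-fold, Per2 3.33-fold, Cry2 1.95-fold and Nr1d1 1.87-fold lower, as ratios of group means, and Clock was 1.37-fold higher. Cry1, Nr1d2, Per3 and Dbp did not pass the threshold. Much of the transcriptome differed between the groups: 68.8% of all tested genes passed, 34.6% lower and 34.2% higher, so that 6 of 10 is a share near the background. The groups did not overlap for 6 of the 10 genes, against 57.3% of all tested genes. The median log2 fold change of the 10 genes was −0.56, beside 0.0065 over all tested genes. The genes differed from one another in the size and direction of the change.

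**Figure D1:**
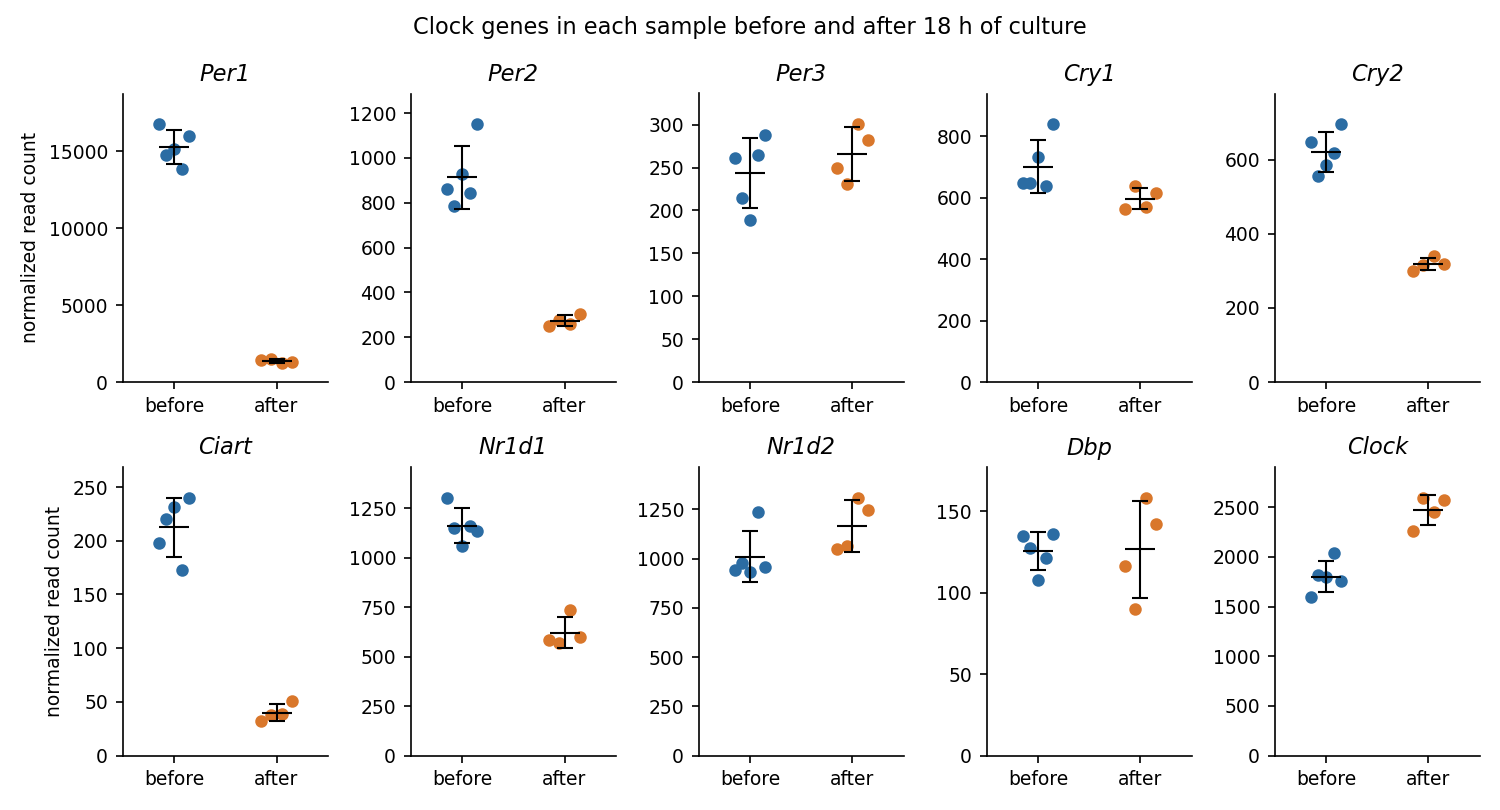
Normalized read count (vertical axes, each from 0) of the 10 clock genes in each sample (5 before, 4 after 18 h of culture). Points are samples, and bars are the mean ± SD. Per1, Per2, Cry2, Ciart and Nr1d1 lie lower after culture with no overlap, Clock lies higher with no overlap, and Per3, Cry1, Nr1d2 and Dbp overlap.

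Depth in rows with a symbol ran from 14.7 to 28.8 M reads before and from 26.0 to 35.3 M reads after culture. The lowest read number behind any value of the 10 genes was 37, for Ciart after culture. Markers of the labelled cell type were read in every sample, but 7 of 8 type 1 dendritic cell markers were lower after culture and 1 was higher, and their summed normalized count went from between 67518 and 78297 to between 14045 and 14771. Markers of other lung cells moved too: 7 of 7 tested neutrophil markers, 8 of 8 endothelial, 8 of 8 fibroblast and 8 of 8 alveolar epithelial markers were lower. Their sums went from 14298 to 25015 before to 932 to 1902 after culture for neutrophils (with Ly6g at 0 in all 4 samples), from 23136 to 33427 to 3238 to 4227 for endothelium, from 17062 to 30589 to 2349.9 to 4652 for fibroblasts and from 24791 to 40865 to 4528 to 8319.9 for alveolar epithelium. T cell sums were 8048 to 9599 before and 6616 to 8613 after culture (3 of 8 lower, 1 higher), B cell sums 3037 to 5679.96 and 2932 to 4054 (2 of 8 lower, 1 higher), and alveolar macrophage sums 17658 to 26348 and 8588 to 11699 (5 of 8 lower, 1 higher). The part of these cells in the changes of the clock genes was not tested, and in bulk RNA fewer cells of a type and less RNA per cell cannot be told apart.

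The promoters of 9 of the 10 genes were matched in RefSeq (GRCm38.p6, the build named in the submitters' processing notes being GRCm38), in 12 windows that run from 250 bases before to 50 after a start site. The E-box CACGTG, the element read by CLOCK and BMAL1, was searched on either strand. It was found for 3 of the 9 genes, Per1, Ciart and Cry1. That is 3 of the 12 windows, beside 7.15% of all 32851 promoter windows. For the D-box, bound by DBP, TEF, HLF and the repressor NFIL3, only the exact letters TTATGTAA were searched, on either strand. They were found for 1 gene, Per3, in 1 of the 12 windows, beside 0.938% of all windows. The stretches upstream of the start site that lie outside annotated exons are printed 5′ to 3′ for these 4 genes, because Per1 and Ciart changed most among the 10 genes while Cry1 and Per3 did not pass the test. They are chr11:69098699-69098947 (plus strand) for Per1, chr3:95882252-95882478 (minus strand) for Ciart, chr10:85185065-85185304 (minus strand) for Cry1 and chr4:151044666-151044915 (minus strand) for Per3. The Per1 stretch lies within the annotated span of the gene given below (69095217 to 69109960), so the start site used for Per1 is not the outermost one. Capitals mark CACGTG and TTATGTAA. The Per1 stretch also holds ttatgcaa, which differs from TTATGTAA in 1 letter, was not searched and is not marked.
Per1: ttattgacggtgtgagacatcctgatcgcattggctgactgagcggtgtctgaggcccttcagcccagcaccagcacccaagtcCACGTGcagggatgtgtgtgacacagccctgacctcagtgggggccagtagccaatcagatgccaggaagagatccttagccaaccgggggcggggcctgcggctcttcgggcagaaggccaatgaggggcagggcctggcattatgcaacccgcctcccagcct
Ciart: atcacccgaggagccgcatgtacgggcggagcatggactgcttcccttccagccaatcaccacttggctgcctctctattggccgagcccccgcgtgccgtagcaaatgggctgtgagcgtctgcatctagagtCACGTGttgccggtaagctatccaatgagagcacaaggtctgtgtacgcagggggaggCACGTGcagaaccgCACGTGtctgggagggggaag
Cry1: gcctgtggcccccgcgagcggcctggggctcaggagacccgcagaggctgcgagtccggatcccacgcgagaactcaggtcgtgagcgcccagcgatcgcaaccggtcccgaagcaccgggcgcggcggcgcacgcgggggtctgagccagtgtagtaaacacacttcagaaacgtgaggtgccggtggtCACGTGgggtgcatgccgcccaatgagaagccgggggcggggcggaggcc
Per3: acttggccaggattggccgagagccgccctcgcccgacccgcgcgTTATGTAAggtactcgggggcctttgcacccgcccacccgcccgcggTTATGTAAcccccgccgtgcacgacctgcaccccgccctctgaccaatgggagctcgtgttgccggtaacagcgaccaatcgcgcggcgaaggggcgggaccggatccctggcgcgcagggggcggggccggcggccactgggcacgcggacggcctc
Ciart held 3 E-boxes, which began 116, 58 and 44 bases upstream of its start site, Per1 held 1 at 166 bases and Cry1 held 1 at 60 bases. Both D-boxes of Per3 began 205 and 158 bases upstream. The variant E-box CACGTT was found for 3 of the 9 genes, Cry1, Cry2 and Nr1d1 (3 of the 12 windows, beside 4.68% of all windows). AGGTCA, the core letters of the element shared by REV-ERB and ROR receptors, was found for Per1, Nr1d2 and Clock (3 of the 12 windows, beside 16.3% of all windows). The cAMP response element TGACGTCA was found in 0 of the 12 windows and in 1.79% of all windows. None of these matches in the 9 genes overlapped another, and a match describes letters, not a bound site. An absence holds only for the exact letters within these windows, and Per2 had no window.

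Clock encodes the activator that gives the loop its name and lies on chromosome 5 (76209868 to 76304792, minus strand, coordinates here and below from GENCODE M21 on GRCm38). Its normalized counts were 1599.6, 1818, 1794, 2036 and 1758 in the 5 samples before culture and 2264, 2593, 2449 and 2574 in the 4 samples after culture. Every sample after culture was above every sample before. The mean went from 1801 ± 156 (SD, n = 5) to 2470.1 ± 151 (SD, n = 4), or 0.46 on the log2 scale (SE 0.0794, limma adjusted p = 1.78e-04). Its partner Bmal1 (listed as Arntl in the annotation, chromosome 7, 113207465 to 113314126, plus strand) was not among the 10 genes and was read beside it. Bmal1 counts were 410.4, 549, 449, 543 and 447 before and 749.9, 582, 813 and 729 after culture. The groups did not overlap, although replicate 2 after culture was only a little above the highest sample before. The log2 fold change was 0.58 (SE 0.119, limma adjusted p = 6.86e-04). Npas2, which can replace Clock in the heterodimer, had means of 65.2 ± 18.0 and 105 ± 25.9 with overlapping groups. Its log2 fold change was 0.69 (limma adjusted p = 0.0156), which no longer passed without replicate 3 after culture (0.55, limma adjusted p = 0.0545) or with a block by title number (0.60, limma adjusted p = 0.0823). All alternatives together gave it adjusted p-values between 0.00122 and 0.0823. Bmal2 did not pass (39.1 ± 9.08 and 51.3 ± 16.9, limma adjusted p = 0.282, but 0.0386 when replicate 4 after culture was left out, and up to 0.569 otherwise).

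The Per genes encode the PERIOD repressors, and the 3 genes differed widely. Per1 (chromosome 11, 69095217 to 69109960, plus strand) had normalized counts of 16734, 14782, 15123, 13849.7 and 15961 before culture and 1427, 1510.2, 1250.2 and 1302 after culture. All samples before culture lay far above all samples after. The mean went from 15290.0 ± 1106 to 1372 ± 118 (SD, n = 5 and n = 4), or −3.48 on the log2 scale (SE 0.0797, limma adjusted p = 1.83e-12). Of all tested genes, 2.19% had a fall at least as large on this scale.

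Per2 (chromosome 1, 91415982 to 91459324, minus strand) had counts of 859.8, 785, 929, 845 and 1149 before and 253, 279, 259 and 306 after culture. Replicate 5 was the highest before culture, and even the lowest sample before was more than the highest after. The log2 fold change was −1.72 (SE 0.113, limma adjusted p = 1.61e-08), a fall from 914 ± 141 to 274 ± 23.8 (SD). Per3 (chromosome 4, 151003652 to 151044665, minus strand) had counts of 261, 214, 188, 264 and 288 before and 249, 230.5, 300.3 and 282 after culture. The groups overlapped for Per3, with means of 243 ± 40.7 and 265 ± 31.5. Its log2 fold change was 0.14 (SE 0.14, limma adjusted p = 0.409), with a 95% confidence interval from −0.17 to 0.44, which covers a fold from 0.890 to 1.35.

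The Cry genes encode the CRYPTOCHROME proteins, which repress CLOCK and BMAL1. Cry2 (chromosome 2, 92403646 to 92434043, minus strand) had counts of 647, 557, 585, 618 and 695 before and 299, 315, 339 and 319 after culture. The groups lay well apart. Its mean went from 620.2 ± 53.8 to 318 ± 16.8 (SD), or −0.96 on the log2 scale (SE 0.0912, limma adjusted p = 6.62e-07). Cry1 (chromosome 10, 85131700 to 85185064, minus strand) had counts of 648, 646, 731, 638 and 838 before and 564, 638, 570.5 and 614 after culture. For Cry1, 4 of the 5 samples before were above all samples after culture, and replicate 4 before lay within the range after. Its log2 fold change was −0.22 (SE 0.0968, 95% confidence interval −0.43 to −0.016) and missed the threshold (limma adjusted p = 0.0536). It passed without replicate 4 before culture (−0.26, limma adjusted p = 0.0324), without replicate 2 after culture (−0.26, 0.0446), with a block by library name (−0.25, 0.0195), with edgeR (0.0403) and with DESeq2 (0.0416), and the highest value over the alternatives was 0.184.

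Ciart (chromosome 3, 95878503 to 95882251, minus strand), also called Chrono, encodes a further repressor of CLOCK and BMAL1. Its counts were 198, 220.3, 231, 172 and 239.9 before and 32.7, 37.9, 39.1 and 50.9 after culture, from 37 to 67 reads in each sample after culture. No sample after culture came near the samples before. The mean went from 212 ± 27.3 to 40.2 ± 7.71 (SD), or −2.38 on the log2 scale (SE 0.166, limma adjusted p = 2.91e-08), and 5.94% of all tested genes had a fall at least as large.

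Nr1d1 and Nr1d2 encode the REV-ERB receptors, which bind heme and repress Bmal1. Nr1d1 (chromosome 11, 98767932 to 98775333, minus strand) had counts of 1302, 1151, 1058, 1161 and 1133 before and 584, 569, 737.9 and 597 after culture. The groups did not overlap, and replicate 3 stood above the other samples after culture. The mean went from 1161 ± 88.4 to 622 ± 78.3 (SD), or −0.90 on the log2 scale (SE 0.0938, limma adjusted p = 1.55e-06). Of the annotated exon bases of Nr1d1, 263 of 3077 (8.55%) also lie in exons of Thra, a thyroid hormone receptor gene on the opposite strand. Thra itself went from 649.6 ± 61.6 to 310.03 ± 17.2, and since the labels do not say whether counting used strand, reads from the shared bases cannot be assigned. Nr1d2 (chromosome 14, 18204054 to 18239127, minus strand) had counts of 944, 978, 933, 1239 and 959 before and 1048, 1062, 1308 and 1248 after culture. Without replicate 4 before culture the groups would lie apart, because 4 of 5 samples before were below all samples after. With all samples its log2 fold change was 0.21 (SE 0.103, 95% confidence interval −0.013 to 0.43, limma adjusted p = 0.0867). It passed without that replicate (0.28, limma adjusted p = 0.00957) and with a block by library name (0.20, limma adjusted p = 0.0363), and the highest value was 0.223.

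Dbp encodes a transcription factor of the PAR bZIP family that carries the rhythm to output genes through D-boxes. It lies on chromosome 7 (45705088 to 45710203, plus strand) and had counts of 135, 127, 108, 121 and 136 before and 117, 90.2, 158 and 142 after culture. The range after culture enclosed the whole range before. Its log2 fold change was −0.01 (SE 0.169, limma adjusted p = 0.955), with a 95% confidence interval from −0.38 to 0.35 and a sign that turned with scaling. Of its exon bases, 539 of 2993 (18.0%) lie in exons of Sphk2 on the opposite strand, whose counts were far higher (1429 ± 135 before and 1647 ± 201 after culture). For Cry2 the bases shared with the antisense D930015M05Rik were 295 of 6320 (4.67%), and that gene had a mean of 33.6 before and 10.8 after culture.

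The next comparison asked whether genes of the same family changed by unequal amounts, with the log2 ratio of a pair taken in each sample so that gene length cancels. All 5 pairs differed in their change (exact two-sided permutation test over samples, p = 0.0159 for each pair, the smallest value this design allows, and 0.0159 after Benjamini-Hochberg adjustment over the 5 pairs). The log2 ratio of Per1 to Per3 fell from 5.98 ± 0.247 to 2.37 ± 0.296 (SD), which is a 12.2-fold fall of the ratio. The ratio of Per1 to Per2 fell from 4.07 ± 0.194 to 2.32 ± 0.183, and that of Per2 to Per3 from 1.91 ± 0.25 to 0.0499 ± 0.203. Within each of the 3 Per pairs the groups lay apart by more than a log2 unit. The log2 ratio of Cry1 to Cry2 rose from 0.171 ± 0.14 to 0.906 ± 0.114. That of Nr1d1 to Nr1d2 fell from 0.205 ± 0.199 to −0.908 ± 0.109. A ratio of counts shows how the pair moved, not which gene had the higher level, because the genes differ in length. The pairs share genes, so the 3 Per ratios are not independent. How many pairs of other genes would reach the smallest p was not computed, so 5 of 5 has no background beside it. Of all tested genes, 57.3% had groups that did not overlap, and the pairs were chosen with earlier results of these data known.

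**Figure D2:**
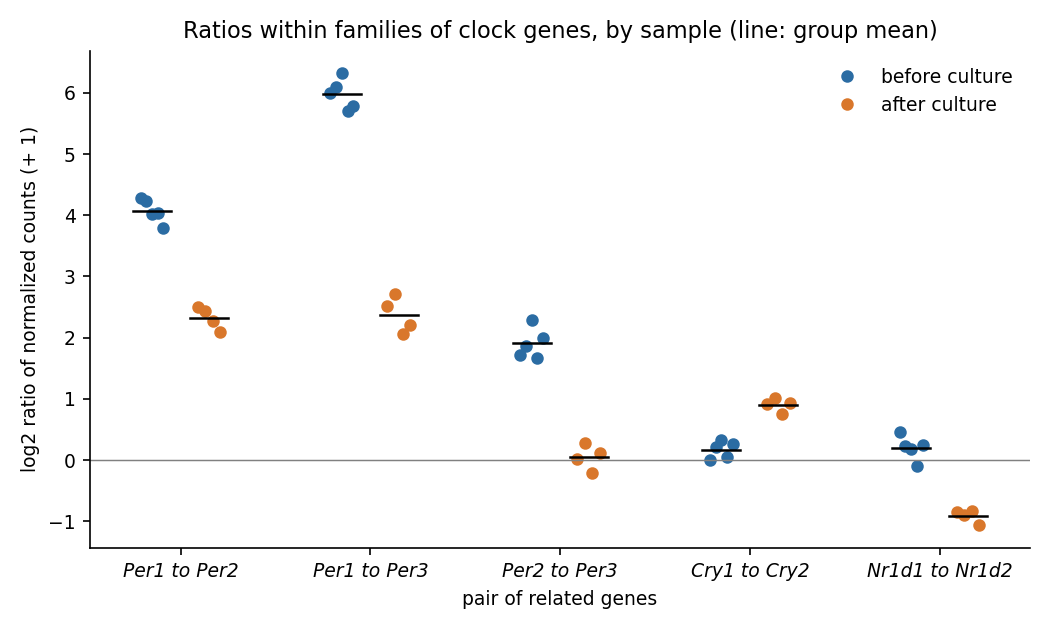
Log2 ratio of normalized counts (with 1 added) within 5 pairs of related clock genes (vertical axis), for each of the 5 samples before and 4 samples after culture. Points are samples and short lines are group means. For every pair the 2 groups lie apart, and only the ratio of Cry1 to Cry2 is higher after culture.

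Levels of different genes can be compared only per length, here as normalized counts per kb of annotated exon, and the annotation may not be the one used for counting. Before culture Per1 led with 2715 ± 196 per kb (SD, n = 5), followed by Nr1d1 with 377 ± 28.7. Both stood apart from their neighbours. Then came Cry1 (209.7 ± 25.7), Nr1d2 (187 ± 23.8), Per2 (156 ± 24.1) and Clock (131 ± 11.4), whose ranges over samples overlapped from each to the next. Lower still were Cry2 (98.1 ± 8.51) and Ciart (93.9 ± 12.1), which overlapped, then Bmal1 (63.8 ± 8.33), Dbp (41.9 ± 3.89) and Per3 (25.3 ± 4.24), each apart from the next. After culture this order was compressed at the top. Per1 (244 ± 21.0 per kb, n = 4), Nr1d2 (216 ± 24.3), Nr1d1 (202 ± 25.4), Clock (179.9 ± 11.04) and Cry1 (179 ± 10.6) each overlapped the next in order. Bmal1 (95.5 ± 13.0) stood alone below them. Cry2 (50.3 ± 2.66), Per2 (46.8 ± 4.06), Dbp (42.4 ± 9.97) and Per3 (27.6 ± 3.28) overlapped in turn, and Ciart (17.8 ± 3.41) was lowest. Per2 and Ciart moved down 3 places each in this order of 11 genes, and Bmal1 moved up 3.

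**Figure D3:**
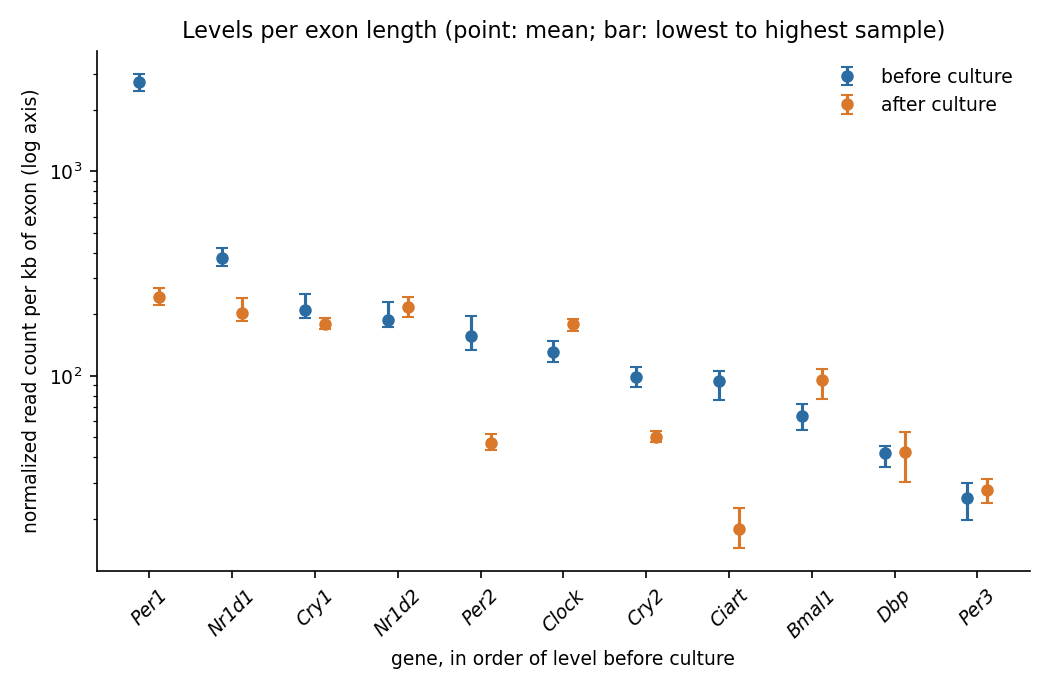
Normalized read count per kb of annotated exon (vertical log axis) for the 10 clock genes and Bmal1, in order of their level before culture. Points are group means (5 samples before, 4 after culture) and bars run from the lowest to the highest sample. Per1 is at 2715 before and 244 after culture, where its range overlaps that of Nr1d2.

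The spread between replicates was above the median of other genes for 5 of the 10 genes in each group. Before culture the coefficient of variation ran from 7.24% for Per1 to 16.7% for Per3, beside a median of 9.79% over the 11786 genes with a mean of at least 100. After culture it ran from 5.29% for Cry2 to 23.5% for Dbp, beside a median of 10.9%. Dbp itself was at 9.28% before culture.

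The wider pathway was read with a list of 44 other genes, of which 43 could be tested. It is wider than the clock itself, with 5 CREB and SIK genes and 7 for the glucocorticoid receptor and its induced genes. After culture 14 were higher and 17 lower, a share of 72.1% beside the 68.8% of all tested genes. The list's median log2 fold change was −0.077, beside 0.0065 over all tested genes. Rora, which encodes an activator of Bmal1, rose from 1864 ± 180.1 to 2703 ± 307 (log2 fold change 0.53), while Rorb was under the minimum level. Of the PAR bZIP factors related to Dbp, Tef rose from 733 ± 39.6 to 1069 ± 107 (0.54) and Hlf from 164 ± 30.1 to 313 ± 54.3 (0.94). Nfil3, which encodes the repressor that competes for D-boxes and is also known for its role in type 1 dendritic cell development, fell from 5280.1 ± 691 to 2581 ± 289.6 (−1.03).

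The DEC genes, whose proteins compete with CLOCK and BMAL1 for E-boxes, moved in opposite directions. Bhlhe41 had counts of 842, 1016, 708, 716.5 and 627 before and 3295, 2949, 2872 and 3264 after culture. All samples after culture were more than 2 times the highest before, and the log2 fold change was 2.00 (SE 0.121, limma adjusted p = 6.99e-09). Bhlhe40 fell from 34642 ± 1776 to 20891 ± 1058 (log2 fold change −0.73, limma adjusted p = 2.10e-06), again with no overlap.

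All 6 kinase genes changed, 4 higher and 2 lower, where 68.8% of all tested genes changed (34.2% higher and 34.6% lower). Csnk1d and Csnk1e, which encode the casein kinases that mark PER proteins for degradation, fell from 6019 ± 269 to 4799 ± 311 (log2 fold change −0.33) and from 1892 ± 152 to 1239 ± 131 (−0.61). Prkaa1, a subunit of the AMP-activated kinase that acts on CRY proteins, rose from 1109 ± 47.5 to 2124 ± 109 (0.94), and Csnk2a1 rose from 2719 ± 110.4 to 4004 ± 168 (0.56). Csnk1a1 was higher by 0.17 (limma adjusted p = 0.0269). It no longer passed without replicate 1 (0.0614) or 2 (0.0697) before culture, without replicate 4 after culture (0.0644), without a filter on low values (0.055) or with a block by title number (0.0701); the lowest value was 0.00488. Of 5 genes for ubiquitin ligases and a deubiquitinase, 1 was higher, 1 was lower and 3 did not pass. So 40% changed, beside 68.8% of all tested genes. The lower gene, Usp2, encodes a deubiquitinase and is itself a clock output in many tissues. Its counts were 506, 489, 711, 436 and 579.96 before and 132, 127, 114 and 133 after culture. The groups lay far apart for Usp2 (log2 fold change −2.08, SE 0.136, limma adjusted p = 1.60e-08).

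Of 7 genes for corepressors and proteins of the PER complex, 4 were lower and 0 higher, so 57.1% changed. Of all tested genes 68.8% changed, 34.6% lower and 34.2% higher. Timeless fell from 1654 ± 174 to 185 ± 6.25 (log2 fold change −3.14, limma adjusted p = 9.48e-12) and its partner Tipin from 183 ± 19.2 to 88.3 ± 11.8 (−1.05). Both proteins are best known for their work at DNA replication forks. Sfpq fell from 11246 ± 712 to 7721 ± 179 (−0.54). Nono fell by 0.25 on the log2 scale with overlapping groups (limma adjusted p = 0.0212). That call was lost without replicate 1 (0.0533), 2 (0.0506) or 3 (0.0517) before culture, without replicate 3 after culture (0.0618) or with a block by title number (0.0584); the lowest value was 0.00147. Ncor1, Hdac3 and Wdr5 did not pass.

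**Figure D4:**
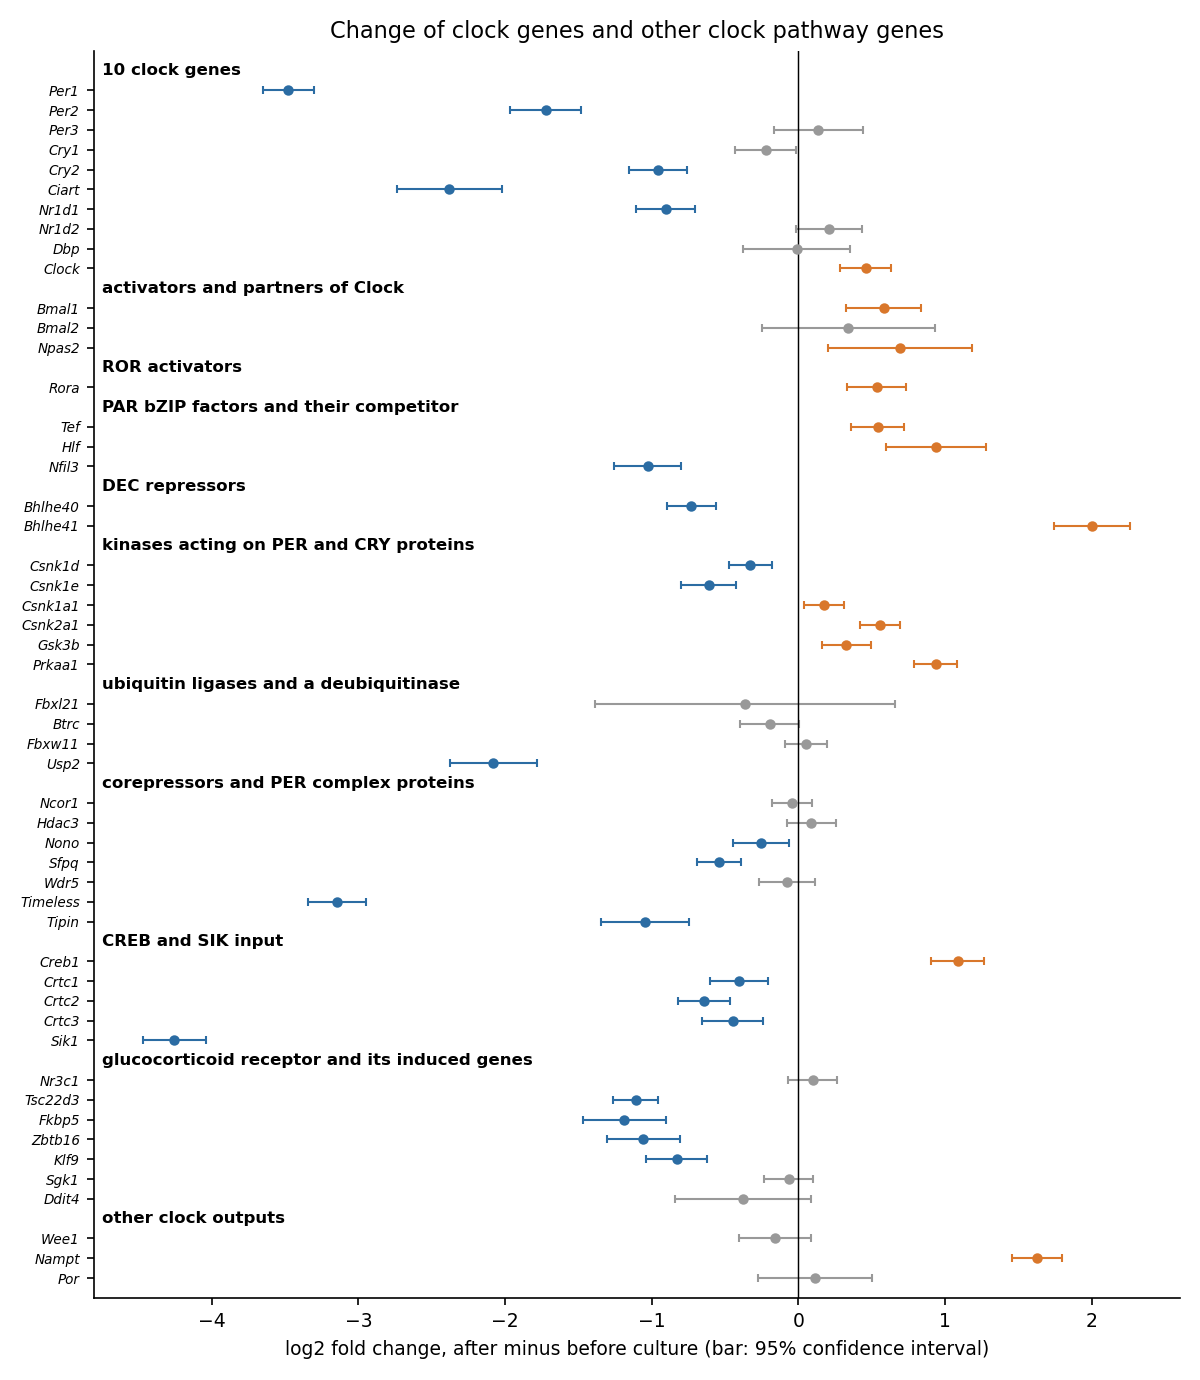
Log2 fold change (after minus before culture, horizontal axis) with its 95% confidence interval for the 10 clock genes and genes of the other clock pathway lists, grouped by role. Blue points are lower, orange points higher and grey points not past a limma adjusted p of 0.05. Sik1, Per1 and Timeless lie farthest to the left and Bhlhe41 farthest to the right.

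Among genes through which outside signals can reach Per1, all 5 of the CREB and SIK list changed, 1 higher and 4 lower. Beside them, 68.8% of all tested genes changed (34.2% higher and 34.6% lower). Sik1, which encodes a kinase that is induced by cAMP and then restrains the CREB coactivators, had counts of 18982, 17716, 20973, 15149 and 19759.7 before and 975, 1096, 856 and 940.4 after culture. The groups lay far apart (log2 fold change −4.25, SE 0.0996, limma adjusted p = 1.87e-12). Creb1 rose from 2303 ± 101 to 4912 ± 584 (1.09), while the coactivator genes Crtc1 (−0.41), Crtc2 (−0.65) and Crtc3 (−0.45) were lower. Nr3c1, the glucocorticoid receptor gene, did not pass (4094 ± 362 and 4369 ± 270.4, limma adjusted p = 0.291). Of 6 genes that glucocorticoids induce in many cells, 4 were lower. With Nr3c1 the list held 7 genes, of which 4 were lower and 0 higher, so 57.1% changed. Of all tested genes 68.8% changed, 34.6% lower and 34.2% higher. Tsc22d3 fell from 3138 ± 160.0 to 1454 ± 93.8 (log2 fold change −1.11), Fkbp5 from 2086 ± 423 to 903 ± 75.8 (−1.19), Zbtb16 from 693 ± 78.4 to 333 ± 45.3 (−1.06) and Klf9 from 1033 ± 85.3 to 582 ± 68.2 (−0.83). Sgk1 did not pass (limma adjusted p = 0.453), and Ddit4 did not pass with all samples (−0.38, limma adjusted p = 0.133). Ddit4 passed without replicate 4 before culture (−0.61, limma adjusted p = 2.48e-04) and with a block by library name (−0.33, limma adjusted p = 0.0331), and its highest value was 0.283.

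Of 3 further clock outputs, 1 was higher, Nampt, and 0 lower, so 33.3% changed. Of all tested genes 68.8% changed, 34.2% higher and 34.6% lower. Nampt encodes the rate-limiting enzyme of NAD salvage, whose gene is driven by CLOCK and BMAL1 in liver, and its counts went from 3002 ± 221 to 9287 ± 751 (log2 fold change 1.63, SE 0.0784, limma adjusted p = 7.96e-10) with no overlap. Wee1, a cell cycle kinase gene with E-boxes (341 ± 20.8 and 307 ± 46.0), and Por (2088 ± 433 and 2264 ± 545) did not pass.

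The genes whose level ran most like each of 5 clock genes were taken by Pearson correlation of log2(value + 1) over the 9 samples among 11775 genes with a mean of at least 100. These correlations describe mainly the gap between the groups where there is one. For Per1 they were Dbn1 (r = 0.9999), Nr4a1 (0.9993) and Ppm1m (0.9992), and for Nr1d1 they were Msantd7 (0.992), Slc25a23 (0.992) and Cnot10 (0.991). For Clock they included 9930111J21Rik1 (0.989) and Cdc50a (0.989), and for Cry1 they were Uri1 (0.977), Snrnp40 (0.941) and Cmas (0.938). For Dbp, where the groups did not separate, they were 5430405H02Rik (0.917), Supt20 (0.865) and Zfp810 (0.853). All points share the 9 libraries and their depths.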

How the data were processed

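The authors deposited a single table for 9 samples of total RNA, whose unit is a non-negative signal, the read count of each gene after normalization. Per the submitters' processing notes, DESeq2 and the build GRCm38 were used. The aligner, counting tool, strandedness, annotation and filters are not given in the sources used here. Columns were matched to samples by library name. All values (100%) were whole multiples, within 1e-06, of the smallest value above 0 in their column, so whole reads were recovered, and 1 factor per sample scales them. Rows without a gene symbol (3782 of 49317) held 6.43 to 10.9% of reads before and 3.87 to 5.46% after culture and were left out. No replicate pair agreed within sampling noise (chi-square over degrees of freedom, 7.02 to 66.9). Before culture, pairs with replicate 4 gave 25.3 to 39.2 and the other pairs 7.02 to 12.1. Pairs after culture gave 13.5 to 66.9.

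Genes averaging a normalized count of 10 or more were tested with limma 3.58.1 in R 4.3.3 on log2(value + 1), with group as the only term, a mean-variance trend and two-sided p-values, with Benjamini-Hochberg adjustment across the 18202 genes tested and a threshold of 0.05. Log2 fold changes are after minus before culture on that scale and understate the change of low genes, while folds in the text are ratios of group means. Family ratios were compared by exact permutation over samples. Alternatives were other pseudocounts (0.5 and 8), other filters (none, or a mean of 50), TMM and quantile scaling, edgeR 4.0.16 and DESeq2 1.42.0 on the recovered reads, 2 replicate blocks and leaving out each replicate.

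The 10 members, the pathway and marker lists and the tests were chosen with earlier results of these data known. Named genes are all 10 members, up to 4 genes of each pathway list by smallest adjusted p, genes whose exons overlap a member, and the 3 genes most correlated with each of 5 members. Csnk1a1, Crtc1, Nr3c1, Sgk1, Ddit4, Ncor1, Hdac3 and Wdr5 fall outside this rule for values and were named after their values were seen, and some genes that meet the rule are not reported here. The table names Bmal1 and Bmal2 by those symbols, which the annotation calls Arntl and Arntl2. Exon lengths and overlaps came from GENCODE M21 and promoters from RefSeq, both on GRCm38.p6. On simulated counts for this comparison with a dispersion of 0.1, limma recovered 28 of 100 genes changed 2-fold and 100 of 100 changed 4-fold among 18015 genes, with 4.48% of calls false. With a dispersion of 0.02 it recovered 100 of 100 at both sizes among 18070 genes, with 4.31% false. Each simulation changed only 100 genes by each amount and gave all genes 1 dispersion. In the data 68.8% of tested genes passed, so these rates cannot be carried over to the real comparison. Python 3.11.15 was used with pandas 2.3.3, SciPy 1.17.1, NumPy 2.4.6 and, for figures, matplotlib 3.10.9.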

Additional observations from a re-analysis of the deposited data

Results flagged for a closer look

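In each group of samples, the highest and lowest values of the 56 clock, pathway and overlapping genes tested were compared with the nearest other sample. A sample stood far from the rest in 6 of 112 groups, and chance gives about 5%. Among the 10 clock genes there were 2 such samples. Nr1d1 was at 737.9 in replicate 3 after culture, with the next highest of the 4 samples at 597. Nr1d2 was at 1239 in replicate 4 before culture, with the next highest of the 5 samples at 978. The others were Hlf at 395 in replicate 4 after culture (next 288), Csnk1a1 at 7946 in replicate 1 after culture (next lowest 8469), Creb1 at 2477.5 in replicate 4 before culture (next 2289.8) and Sphk2 at 1197 in replicate 4 before culture (next lowest 1452). Replicate 4 before culture accounted for 3 of the 6.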

How the results depend on the processing

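Over the 19 alternatives, the count of lower clock genes was 5 or 6 and the count of higher ones 1 or 2. The higher count was 2 with a replicate block by library name, through Nr1d2, and lay between 1 and 2 with single replicates left out. Per1, Per2, Cry2, Ciart, Nr1d1 and Clock kept their direction and call in all 19, with Per1 between −3.53 and −3.43, Per2 between −1.78 and −1.62, Cry2 between −0.997 and −0.85, Ciart between −2.50 and −2.20, Nr1d1 between −0.99 and −0.86 and Clock between 0.42 and 0.50 (log2). Pathway counts stayed at 12 to 14 higher and 16 to 18 lower. The 5 family ratios kept their direction and call in each of the 13 alternatives run for them, with an exact permutation p of at most 0.0357, the smallest that leaving out a sample after culture allows.

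Dbp, never past the threshold, turned positive with TMM scaling (0.0171), quantile normalization (0.21), edgeR (0.00699), DESeq2 (0.0148) and a replicate block by title number (0.0180), and lay between −0.13 and 0.14 with single replicates left out. Por, also never past the threshold, turned negative without replicate 4 before culture (−0.0282) and without replicate 2 after culture (−0.0212). Btrc passed with DESeq2 (−0.21, adjusted p = 0.0453) and without replicate 5 before culture (−0.25, limma adjusted p = 0.0279). Sphk2 passed with TMM scaling (0.23), quantile normalization (0.20), a block by library name (0.21) and without replicate 3 after culture (0.27).

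Same-numbered samples by title deviated from their group means with correlations of 0.0807, 0.0796, −0.213 and −0.0403, and by library name of 0.0807, 0.247, 0.349 and 0.0447. Each of the 4 samples after culture correlated best with the sample before culture of its own library number. Replicate 5 before culture correlated more with replicate 1 after culture (0.0664) than with its own library number (0.0447). Whether library numbers mark pairs was not settled, and the main test used no pairs. With a replicate block by title number (without replicate 5 before culture) 1 clock gene was higher and 5 lower, with 11674 genes called in all. With a block by library name (without replicate 2 before culture) 2 were higher and 6 lower, with 12859 called. Among the 10 clock genes the fewest reads were those of Ciart, with 37 to 67 per sample after culture.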
